A study of Rattus norvegicus with 10 samples.

Results

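The genes described here mark the steps by which an oligodendrocyte precursor becomes a myelinating oligodendrocyte. The set is 10 genes, looked up by gene name in a deposited table of 32623 rat genes. They are Pdgfra, Cspg4, Sox6, Lhfpl3 and C1ql1 as precursor genes, Neu4, Gpr17 and Bcas1 as genes of committed cells, and Enpp6 and Tcf7l2 as genes of newly formed oligodendrocytes. Of the 10, 9 had a row, 8 had reads, and the same 8 passed the filter on low values (a mean of at least 10 normalized counts over all samples). Neu4, which encodes a sialidase, was listed at 0 reads in all 10 libraries. In a single library, a count of 0 leaves room for an expected count of up to about 3 reads. Whether the 0 of Neu4 comes from the tissue or from the annotation or strand setting used for counting was not tested. Lhfpl3, a tetraspan membrane protein gene of precursors, has no expression value analysed here.

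Oligodendrocyte precursors carry the PDGF receptor alpha (Pdgfra), through which platelet-derived growth factor keeps them dividing, and the proteoglycan NG2 (Cspg4). A precursor that leaves the cycle passes through a committed stage marked by the receptor Gpr17 and then an early premyelinating stage marked by Enpp6 and Tcf7l2, before it switches on myelin genes such as Mbp and Mog. Precursors are spread through grey and white matter of the adult hypothalamus, and mature oligodendrocytes are most dense in tracts such as the optic chiasm and optic tract, which lie beside the supraoptic nucleus.

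RNA had been sequenced from 10 supraoptic nuclei of male Sprague Dawley rats, 5 in each of 2 groups with replicate numbers 1 to 5. The shOpn3 group had received an adeno-associated virus carrying a hairpin (shRNA) directed at Opn3, the opsin 3 gene, and the shControl group a virus with a non-targeting hairpin. Each rat had received both viruses, one on each side, and single nuclei were punched from frozen sections 2 weeks later. Both groups had thus been injected, no uninjected nucleus was included, and the age of the rats, the viral serotype and the promoter driving the hairpins are not given in the sources used here.

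Libraries held 33158341 to 39958578 reads each. Levels below are normalized counts, that is reads divided by the size factor of the library. Opn3, the target, had 704 ± 277 normalized counts with the control virus and 188 ± 59.7 with shOpn3 (± SD of 5 samples), a log2 difference of -1.82 with adjusted p = 0.00226 by limma, and shControl replicate 5 (261) lay within the shOpn3 range (145 to 289.7). Avp and Oxt, the hormone genes that define the nucleus's magnocellular neurons, had at least 32813 and 16742 normalized counts in every shControl library, and both fell in shOpn3. Over all genes, 18.8% of 15597 passed the limma test at an adjusted p under 0.05, 10.4% higher and 8.48% lower in shOpn3. In these libraries the mean log2 level of 22 mature oligodendrocyte and myelin genes was 13.5 ± 0.344 in shControl and 12.3 ± 0.354 in shOpn3 (± SD of 5 samples). Within the control group it was highest in replicates 5 (14.1) and 1 (13.7), against 13.3 in each of the others. These 2 control libraries stand apart below for several precursor genes too, and the values without both samples of replicates 1 and 5 are given where they change a call or a sign.

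Across the 8 genes with reads, 3 passed the test and 5 did not. Bcas1 fell to 49.6% of control, and Sox6 and Tcf7l2 rose to 142% and 149%, while Pdgfra, Cspg4, C1ql1 and Gpr17 had mean levels between 87.9% and 99.1% of control and Enpp6 had 60.2% without passing. The called members were 2 of 8 higher, against 10.4% of all genes tested, and 1 of 8 lower, against 8.48%. The median log2 difference of the 8 was -0.06, beside -0.02 over all genes tested. The called members thus took both directions. With the replicate number as a block 2 of 8 were higher and 2 lower, where 30.3% of all genes were called, 15.1% higher and 15.2% lower. With edgeR on the recovered reads 2 were higher and 1 lower, where 19.4% of all genes were called, 10.4% higher and 9.04% lower. Without both samples of replicates 1 and 5 just Sox6 and Bcas1 were called, where 21.9% of all genes were, 11.0% higher and 10.9% lower. Values of the groups were fully separate in 2 of the 8 genes, against 15.3% of all genes. In bulk tissue a lower level cannot be separated into fewer cells of a type and less RNA per cell.

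**Figure D1:**
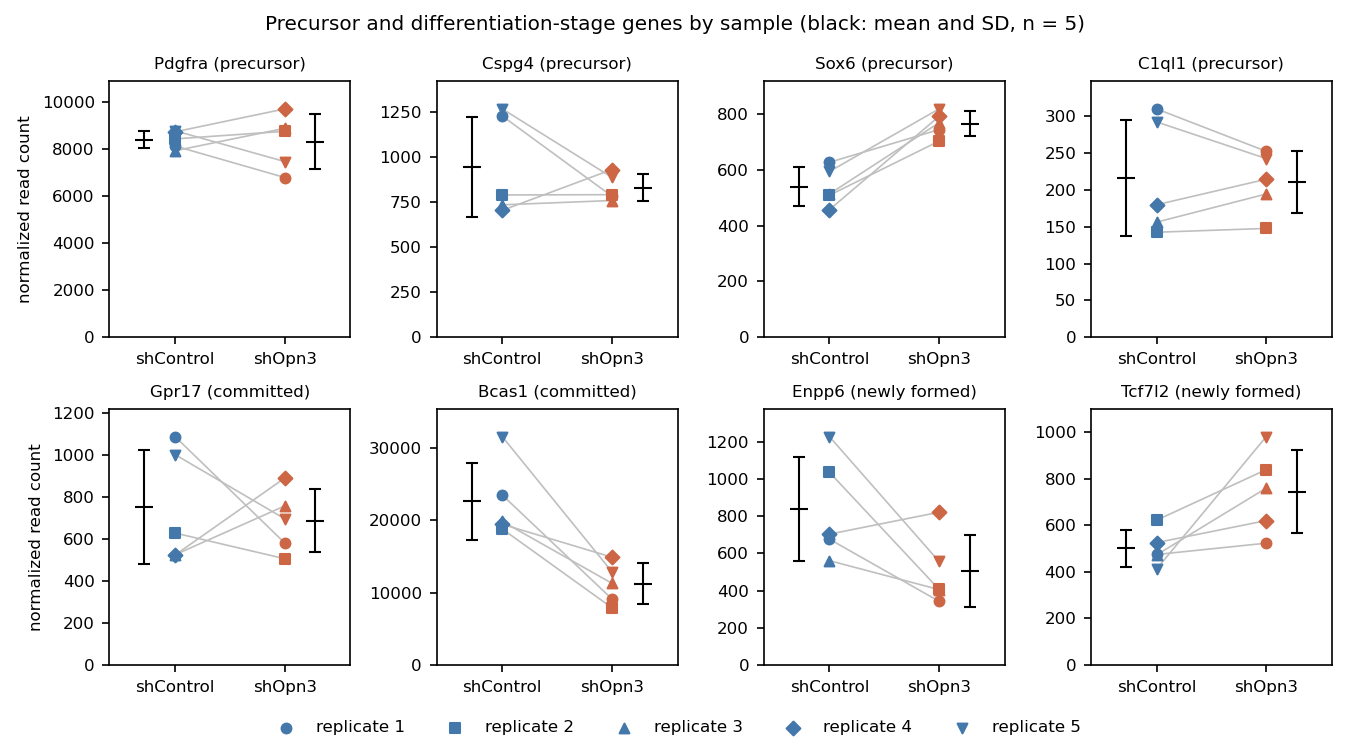
Normalized read counts of the 8 genes with reads (y axis, from 0) in shControl and shOpn3 samples (x axis). Each symbol is a replicate number, grey lines join same-numbered samples, and black bars are group means with the SD (n = 5). Sox6 and Bcas1 are the genes whose groups do not overlap, and the shControl values of Cspg4, C1ql1 and Gpr17 split into replicates 1 and 5 above the other three.

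Among precursor genes, Pdgfra (ENSRNOG00000002244), the receptor that defines the stage, had 8144, 8449.7, 7943, 8749.6 and 8795 normalized counts in shControl replicates 1 to 5. In shOpn3 replicates 1 to 5 it had 6803, 8772, 8900.3, 9727 and 7482. The control values were tightly grouped, and the knock-down values spread to both sides of them, lowest in replicate 1 and highest in replicate 4. The log2 difference was -0.02 (SE 0.0951; 95% interval -0.23 to 0.18; limma test, adjusted p = 0.892). This was the narrowest interval among the 8 genes, and it leaves room for a level between 0.852 and 1.13 times that of control. The sign of this small value turned with quantile normalization and without replicates 1 and 5 (0.06 and 0.12).

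Cspg4 (ENSRNOG00000017208), the NG2 proteoglycan of precursors and also of pericytes, had 1229, 791, 736, 705 and 1269 normalized counts in shControl and 784, 792, 759.8, 932 and 889 in shOpn3. The control group was split, with replicates 1 and 5 above every knock-down sample and the remaining 3 below the knock-down median. The group difference of -0.14 (SE 0.169; 95% interval -0.51 to 0.22) did not pass (limma, adjusted p = 0.607), and without replicates 1 and 5 it was 0.15 (adjusted p = 0.325). C1ql1 (ENSRNOG00000002963), a secreted C1q-like protein that precursors and some neurons make, showed the same split. Its control values were 309.9, 142, 156, 179.8 and 292, and its knock-down values were 252.3, 148, 194, 214 and 242.5. Its log2 difference was 0.01 (SE 0.235; 95% interval -0.50 to 0.52; limma test, adjusted p = 0.982), so for C1ql1 levels from 0.707 to 1.44 times control lie inside the interval.

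Sox6 (ENSRNOG00000020514), a SOX transcription factor that holds precursors in the undifferentiated state and is also found in some neurons and astrocytes, behaved otherwise. It had 628, 509.8, 514, 458 and 595 normalized counts in shControl and 745, 704, 770.0, 793 and 819.8 in shOpn3. Every knock-down sample lay above every control sample, which was so, in that direction, for 8.03% of all genes tested. The mean rose from 541 ± 69.1 to 766 ± 44.4 (± SD of 5 samples), which is a log2 difference of 0.51 (SE 0.0983; limma test, adjusted p = 0.00385; exact two-sided permutation p = 0.00794, the smallest that 5 against 5 samples allow). Sox6 was higher in 5 of 5 same-numbered pairs, at 119% to 173% of the paired control. Without replicates 1 and 5 its log2 difference was 0.61 (adjusted p = 0.00402), so the rise was as large without the control libraries that stand apart.

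Of the committed-stage genes, Gpr17 (ENSRNOG00000025745), a G protein-coupled receptor present for a short window between precursor and myelinating cell, had 1087, 628, 525, 523 and 1001 normalized counts in shControl. In shOpn3 it had 580.4, 506, 757, 889.6 and 696. The control values again split into replicates 1 and 5 and the rest, and the knock-down values ran from below the lowest control to between the 2 control clusters. The log2 difference was -0.09 (SE 0.227; 95% interval -0.58 to 0.40; limma test, adjusted p = 0.827). Without replicates 1 and 5 it was 0.33 (SE 0.195; adjusted p = 0.268), so the sign of the Gpr17 difference turned without those libraries and no direction is given.

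Bcas1 (ENSRNOG00000012906), a basic protein of premyelinating and myelinating oligodendrocytes that also stays on in mature cells, had the largest change of the 8. It had 23468, 18782, 19829, 19429.9 and 31535 normalized counts in shControl and 9114, 7902, 11276, 14884 and 12879 in shOpn3. The groups did not overlap, which was so, in that direction, for 7.23% of all genes tested. The mean fell from 22609 ± 5313 to 11211 ± 2812 (± SD of 5 samples), which is a log2 difference of -1.02 (SE 0.183; limma test, adjusted p = 0.00255; exact two-sided permutation p = 0.00794). Bcas1 was lower in 5 of 5 pairs, at 38.8% of the paired control in replicate 1 and 76.6% in replicate 4. Without replicates 1 and 5 the log2 difference was -0.82 (adjusted p = 0.0220).

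Of the genes of newly formed oligodendrocytes, Tcf7l2 was higher and passed the limma test narrowly. Enpp6 was lower on average and did not pass it. Enpp6 (ENSRNOG00000009660), a choline phosphodiesterase switched on as precursors differentiate, had 677, 1037, 561, 704 and 1229 normalized counts in shControl and 343, 407, 406, 822 and 557 in shOpn3. It was lower in 4 of 5 pairs, with 822 against 704 in replicate 4 as the exception. The log2 difference of -0.74 (SE 0.256) did not pass (limma, adjusted p = 0.0633; exact two-sided permutation p = 0.0476, not adjusted). With the replicate number as a block it passed (adjusted p = 0.0277), and without shOpn3 replicate 4 or shControl replicate 3 the adjusted p was 0.0157 or 0.0389. Without both samples of replicates 1 and 5 it was -0.53 (adjusted p = 0.254).

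Tcf7l2 (ENSRNOG00000049232), a TCF/LEF transcription factor of the Wnt pathway that is brief in oligodendrocytes and lasting in thalamic neurons and some astrocytes, had 475, 623, 474, 526.2 and 412 normalized counts in shControl. In shOpn3 it had 524, 840.1, 761, 621 and 982. The groups overlapped, since shOpn3 replicates 1 and 4 lay below shControl replicate 2. The mean rose from 502 ± 78.6 to 746 ± 180.1 (± SD of 5 samples), which is a log2 difference of 0.55 (SE 0.166; limma test, adjusted p = 0.0365; exact two-sided permutation p = 0.0397). Tcf7l2 was higher in 5 of 5 pairs, from 110.3% of the paired control in replicate 1 to 238% in replicate 5. The call was a narrow one: it was lost when any 1 of 7 libraries was left out (shControl replicates 1, 3, 4 or 5, or shOpn3 replicates 2, 3 or 5; adjusted p from 0.0592 to 0.0875), always with the same direction. Without both samples of replicates 1 and 5 it was lost as well (log2 difference 0.45, adjusted p = 0.0555).

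Promoters of 8 of the 10 genes stood in a RefSeq table of the assembly GRCr8, and those of Bcas1 and C1ql1 did not. The 4 printed belong to the 2 transcription factor genes that rose, to Enpp6, which was not called, and, for comparison, to Pdgfra, whose level was close to control. Each sequence is the 250 bases before the start that the table uses, written 5′ to 3′ on the strand of the gene. Capitals mark matches, on either strand, to the SOX core motifs ACAAAG or ACAATG. The windows are chr1:179665372-179665621 on the minus strand for Sox6, chr1:264791085-264791334 on the plus strand for Tcf7l2, chr16:52026729-52026978 on the minus strand for Enpp6, and chr14:33408517-33408766 on the minus strand for Pdgfra.
Sox6: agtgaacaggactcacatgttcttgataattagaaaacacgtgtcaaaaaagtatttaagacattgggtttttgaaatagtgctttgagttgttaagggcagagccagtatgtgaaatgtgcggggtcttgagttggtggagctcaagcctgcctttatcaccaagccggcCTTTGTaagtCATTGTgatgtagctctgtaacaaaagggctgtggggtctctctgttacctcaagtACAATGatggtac
Tcf7l2: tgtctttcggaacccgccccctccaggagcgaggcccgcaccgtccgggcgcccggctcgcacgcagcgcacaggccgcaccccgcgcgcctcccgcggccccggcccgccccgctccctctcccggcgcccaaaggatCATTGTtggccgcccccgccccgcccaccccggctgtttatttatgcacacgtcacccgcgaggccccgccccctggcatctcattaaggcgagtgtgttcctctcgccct
Enpp6: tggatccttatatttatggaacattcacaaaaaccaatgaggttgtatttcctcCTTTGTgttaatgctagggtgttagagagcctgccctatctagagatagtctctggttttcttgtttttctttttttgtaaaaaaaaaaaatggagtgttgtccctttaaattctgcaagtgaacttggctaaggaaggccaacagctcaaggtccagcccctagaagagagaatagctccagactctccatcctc
Pdgfra: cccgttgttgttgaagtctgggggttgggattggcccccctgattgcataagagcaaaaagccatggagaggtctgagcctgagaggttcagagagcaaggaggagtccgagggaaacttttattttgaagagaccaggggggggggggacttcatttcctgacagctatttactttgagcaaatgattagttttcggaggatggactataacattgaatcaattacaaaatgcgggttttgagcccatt
The Sox6 window held 3 matches (1 of ACAAAG and 2 of ACAATG), the Tcf7l2 window 1 of ACAATG, the Enpp6 window 1 of ACAAAG, and the Pdgfra window 0. Of 33469 such windows in the table, 25.3% held at least 1 match, and of the 8 members' windows 3 did, all of them printed. The windows of Cspg4, Gpr17, Lhfpl3 and Neu4, which are not printed, held no SOX match. The printed windows thus do not show whether matches go with a change in level. The TCF/LEF motif ATCAAAG, present in 3.15% of all windows, was in 0 of the 8, and the E-box CAGCTG, present in 12.0%, was in those of Lhfpl3 and Neu4. The windows also differ in base composition, from 73.6% G and C with 32 CpG in Tcf7l2 to 40.0% with 0 CpG in Enpp6. A match is a run of letters and not a bound site.

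The next question was whether the members differed from mature oligodendrocyte transcripts, which had fallen. Of the 22 mature genes tested, 21 fell and 0 rose, against 8.48% and 10.4% of all genes, with a median log2 difference of -1.22. Mog and Opalin, which encode proteins of the myelin and oligodendrocyte surface, changed by -1.30 and -1.07 (SE 0.162 and 0.144; limma test, adjusted p = 0.000407 and 0.000568). Each gene was therefore also tested after the mean log2 level of the mature list had been subtracted in every sample. On that scale Pdgfra, Cspg4, C1ql1 and Gpr17 were higher in shOpn3 by 1.18, 1.06, 1.21 and 1.11 (SE 0.257, 0.203, 0.204 and 0.212), and Sox6 and Tcf7l2 by 1.71 and 1.75 (SE 0.207 and 0.273), with limma adjusted p from 1.38e-06 to 0.000311. Because the mature list itself had fallen, 95.9% of all genes were called higher in this way, with a median of 1.18. The 6 calls are thus a statement about each ratio and not a trait of precursor genes.

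Bcas1 and Enpp6 were the 2 of 8 not called on the scale relative to the mature list, against 4.06% of all genes. The subtraction moved every gene outside the list by the same amount, since the list mean had changed by -1.20. The 2 are thus the members that were lowest before it (-1.02 and -0.74), and this is not a separate result. For Bcas1 the difference was 0.18 (SE 0.218; 95% interval -0.27 to 0.64; adjusted p = 0.420), and for Enpp6 it was 0.46 (SE 0.239; interval -0.04 to 0.96; adjusted p = 0.0709). The ratio of Bcas1 to myelin transcripts was therefore measured to within about -0.27 to 0.64 of no change on the log2 scale. With the replicate block Enpp6 was called (adjusted p = 0.00628).

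**Figure D2:**
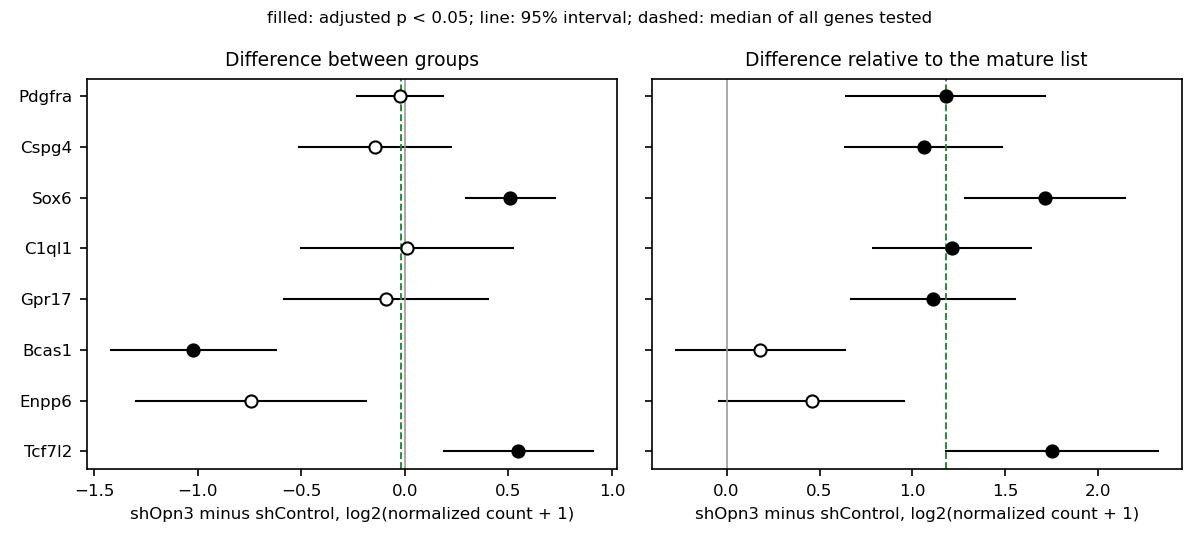
Log2 difference of shOpn3 minus shControl (x axis) for each gene (y axis), on log2(normalized count + 1) at left and after subtraction of the mature oligodendrocyte list at right. Filled points passed the test, lines are 95% intervals, and the dashed line is the median of all genes tested. At left Bcas1 lies at -1.02 and Pdgfra at -0.02, and at right Bcas1 and Enpp6 lie nearest to 0 while the other 6 genes lie at 1.06 or above.

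Same-numbered samples were compared next, because each rat had received both viruses. That equal numbers mark the same rat is not stated, and the correlation between same-numbered samples was lowest in replicate 4 (r = 0.12). Of the 8 genes, 3 moved in 1 direction in all 5 pairs (Sox6, Bcas1 and Tcf7l2), against 39.4% of all genes tested, and the exact sign-flip test over 5 pairs cannot go below 0.0625. The pairs differed among themselves in a repeated way. In replicate 4, Pdgfra, Cspg4, C1ql1, Gpr17 and Enpp6 were all higher on the knock-down side, at 111%, 132%, 119%, 170.0% and 117% of the paired control. In replicates 1 and 5 the same genes were all lower, at 83.5%, 63.8%, 81.4%, 53.4% and 50.6% in replicate 1 and 85.1%, 70.0%, 83.0%, 69.5% and 45.3% in replicate 5. Bcas1 fell least in replicate 4, and so did the mean of the mature list, with -0.70 in replicate 4 against -1.42 to -1.18 in the other pairs. Tcf7l2 had another order, with its largest difference in replicate 5 (1.25) and its smallest in replicate 1 (0.14).

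**Figure D3:**
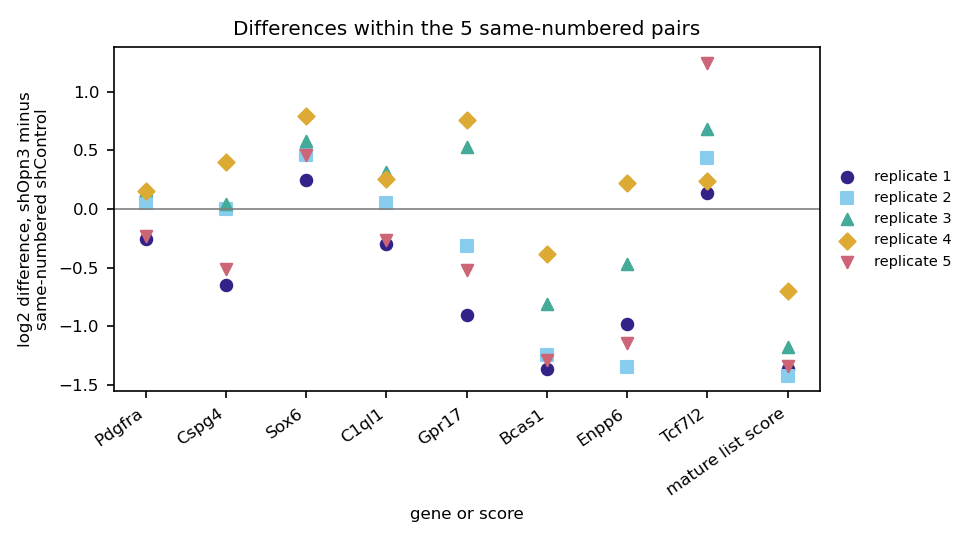
Log2 difference of each shOpn3 sample from the same-numbered shControl sample (y axis) for the 8 genes and the mean of the mature list (x axis), with 1 symbol for each replicate number. Replicate 4 is the highest for Cspg4, Sox6, Gpr17, Bcas1, Enpp6 and the mature list, and for Tcf7l2 replicate 5 is the highest at 1.25.

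Within the groups the members differed in how closely they varied with mature oligodendrocyte transcripts. Over the 10 samples, taken as deviations from their group means, Bcas1 correlated with the mature list at r = 0.90, C1ql1 at 0.83, Cspg4 and Sox6 at 0.78, and Gpr17 at 0.76. Enpp6 stood at 0.58, Pdgfra at -0.06 and Tcf7l2 at -0.31. Among the members, Cspg4, Sox6 and Gpr17 were closely alike (r from 0.89 to 0.90 in their 3 pairs), whereas Pdgfra and Cspg4, the receptor and the proteoglycan of the same stage, had r = 0.11. These values describe 10 libraries, each of which is a single punch, so all genes in it share its tissue content. In shControl replicates 1 and 5, Gpr17 lay 0.60 and 0.48 above its group mean on the log2 scale, and Cspg4 0.43 and 0.47.

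**Figure D4:**
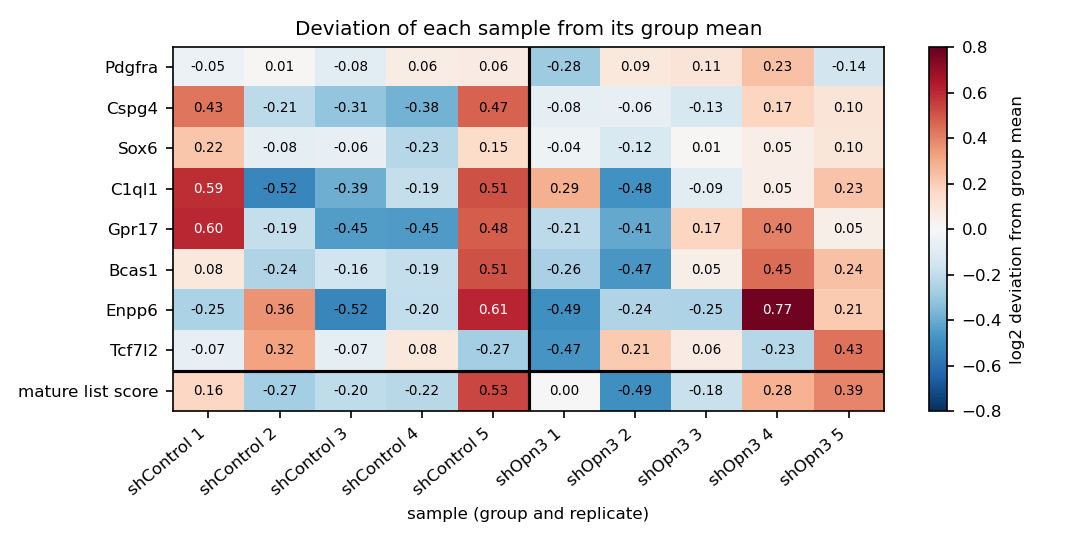
Deviation of each sample from its group mean, in log2(normalized count + 1), for the 8 genes and the mean of the mature oligodendrocyte list (rows) in the 10 samples (columns). Red is above and blue below the group mean. Cspg4, Sox6, C1ql1, Gpr17 and the mature list are all above it in shControl replicates 1 and 5, while Pdgfra stays within -0.08 to 0.06 in all shControl samples.

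The genes most like a member by within-group deviation were listed for Pdgfra and Enpp6. These genes were picked as the highest r among the genes tested, so high values follow in part from the picking. For Pdgfra they were Nuf2 (r = 0.97), P2ry10, Ighm, Gjb6 and Aldh1a2 (each 0.94, n = 10 samples), and for Enpp6 they were Flna (0.96), Irak3, Mtmr11, Kcnj14 and Lrp1 (0.92 to 0.93). Of these 10 genes, 1 was called between the groups, against 18.8% of all genes. It was P2ry10 (log2 difference 1.02, SE 0.262; limma test, adjusted p = 0.0174).

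Other genes of the lineage were taken as lists. Some genes, among them Myrf, Olig1, Olig2 and Sox5, stand in more than 1 of them, so the counts are not independent. Of 22 further precursor-enriched genes, 4 rose and 7 fell (median log2 difference -0.04), against 10.4% and 8.48% of all genes. Nxph1, which encodes a neurexin ligand and is also made by interneurons, rose from 1679 ± 291 to 2939 ± 714 normalized counts (± SD of 5 samples; log2 difference 0.79, SE 0.169; limma test, adjusted p = 0.00652). Cdo1, a cysteine dioxygenase that astrocytes also make, rose by 0.40 (SE 0.0909), while Rlbp1 and Snx22 changed by -0.65 and -0.99 (SE 0.122 and 0.206). The list thus split in direction, as the members did. With the replicate block 7 rose and 8 fell, against 15.1% and 15.2% of all genes. With TMM scaling 5 rose and 4 fell, where 1636 and 1270 of 15597 genes did. With quantile normalization 6 rose and 6 fell, where 1570 and 1403 genes did.

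Of 23 further genes of committed and newly formed cells, 3 rose and 2 fell (median -0.19), against 10.4% and 8.48% of all genes. With the replicate block 3 rose and 8 fell, against 15.1% and 15.2%. Myrf, the transcription factor that starts myelin gene expression, fell from 5204 ± 2154 to 2291 ± 706 normalized counts (± SD of 5 samples; log2 difference -1.15, SE 0.275; limma test, adjusted p = 0.0119). Nfasc, a cell adhesion molecule of the axon and its myelin, changed by -0.50 (SE 0.125). Sema5a, a semaphorin, and Cemip2, a cell surface protein, rose by 0.45 and 0.31 (SE 0.0686 and 0.0877).

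Of 23 lineage transcription factors tested, 8 fell, 2 rose and 13 did not pass (median -0.36), where 8.48% of all genes fell and 10.4% rose. With the replicate block 11 fell, where 15.2% of all genes did, and without replicates 1 and 5, 6 fell, where 10.9% did. St18, which promotes differentiation, fell from 1490 ± 313 to 702 ± 105 normalized counts (± SD of 5 samples; log2 difference -1.08, SE 0.141; limma test, adjusted p = 0.000496). Sox8 and Olig1, which act with Sox10 and Olig2 along the whole lineage, changed by -0.73 and -0.88 (SE 0.134 and 0.211; limma test, adjusted p = 0.00285 and 0.0123). Olig2 and Sox10, which were singled out after their values were seen, changed by -0.71 and -1.12 (SE 0.194 and 0.292; limma test, adjusted p = 0.0227 and 0.0185). Sox6 was thus higher in the same libraries in which these 5 factors were lower. The 2 factors of the list that rose, Sox11 and Zfp365, changed by 0.52 and 0.51 (SE 0.141 and 0.125; limma test, adjusted p = 0.0224 and 0.0131). Sox5, the close partner of Sox6, did not pass (log2 difference 0.02, adjusted p = 0.932) and was likewise singled out afterwards.

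**Figure D5:**
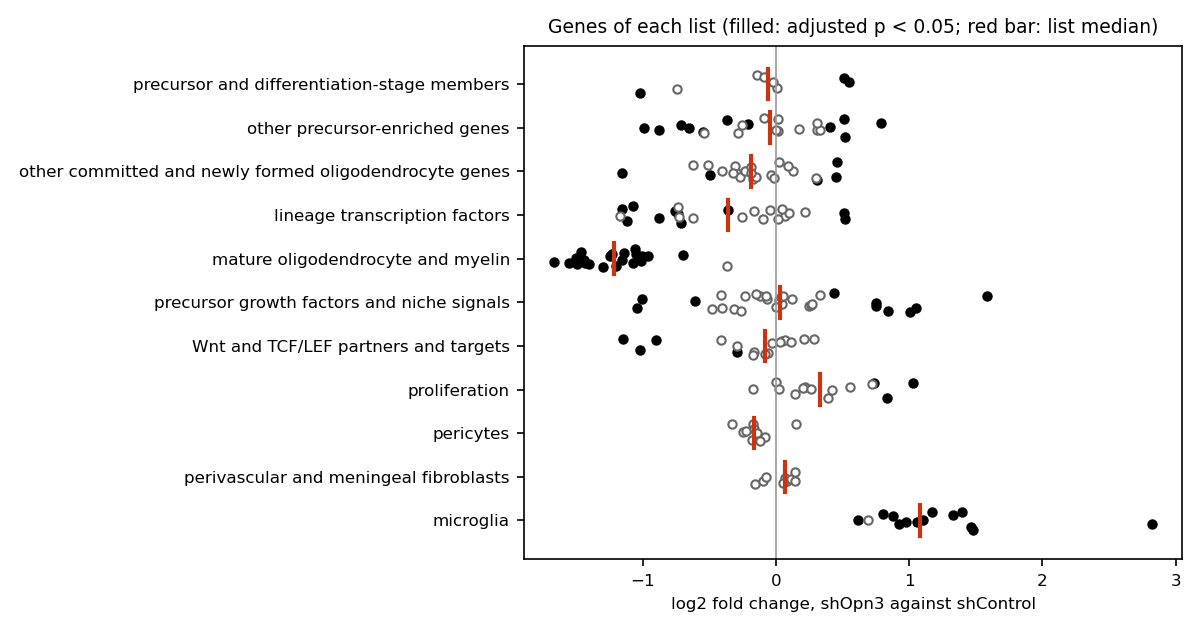
Log2 fold change of shOpn3 against shControl (x axis) for every tested gene of 11 lists (y axis). Filled points passed the limma test, open points did not, and red bars are list medians. The median is -0.06 for the members, -0.36 for lineage transcription factors, -1.22 for mature oligodendrocyte genes and 1.08 for microglia.

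Signals that act on precursors were looked at from ligand to receptor. Pdgfc, a ligand of Pdgfra, rose from 508 ± 40.9 to 856 ± 63.6 normalized counts (± SD of 5 samples; log2 difference 0.75, SE 0.0868; limma test, adjusted p = 0.000306), with no overlap between groups. Pdgfa, the ligand best known for driving precursors, had 478 ± 117 and 338 ± 54.0 (log2 difference -0.48, SE 0.167; limma test, adjusted p = 0.0664), lower in 5 of 5 pairs and called with the replicate block (adjusted p = 0.00434). The ligand that rose and the ligand that was lower in every pair thus lay on opposite sides of control, beside Pdgfra itself at 99.1% of control. Of the 30 signalling genes, 7 rose and 3 fell (median 0.03), against 10.4% and 8.48% of all genes. With quantile normalization 7 rose and 5 fell, where 1570 and 1403 of 15597 genes did. Sema3a, a semaphorin that repels precursors, rose by 1.05 (SE 0.136) and Igf1 by 0.84 (SE 0.153), while Lpar1, a lysophosphatidic acid receptor abundant in maturing oligodendrocytes, changed by -1.001 (SE 0.140).

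Tcf7l2 works with beta-catenin, so partners and targets of the Wnt pathway were counted as well. Of 17 tested, 0 rose and 4 fell (median -0.08), against 10.4% and 8.48% of all genes. The 4 were the feedback inhibitors Nkd1 and Rnf43 with -1.14 and -1.02 (SE 0.190 and 0.300), Daam2 with -0.90 (SE 0.218) and Dkk3 with -0.29 (SE 0.0907), with limma adjusted p from 0.00166 to 0.0427. Axin2, a general target singled out after its value was seen, did not pass (log2 difference 0.07, adjusted p = 0.723). Of 14 proliferation genes, 3 rose (Ccnb1, Rrm2 and Mcm5, by 0.83, 0.74 and 1.03) and 0 fell, against 10.4% and 8.48% of all genes. Mki67 and Top2a, singled out in the same way, had 0.20 and 0.27 (SE 0.388 and 0.342; limma test, adjusted p = 0.768 and 0.637).

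Markers of other cells that can carry member transcripts were measured beside them. For Cspg4 and Pdgfra these are pericytes and fibroblasts. Of 10 pericyte genes, 0 were called, against 18.8% of all genes, and 1 with the replicate block, against 30.3%. Their summed level was 10030 to 11981 normalized counts in shControl and 8307 to 11436 in shOpn3. Of 9 fibroblast genes, 0 were called, against the same 18.8%, with sums of 21340.4 to 28064 and 23619 to 31207. No gene of either list was at 0, and the part of these cells in the Cspg4 and Pdgfra values was not tested. Pdgfrb, the receptor of pericytes, had a log2 difference of -0.14 and Dcn, a fibroblast proteoglycan, 0.11 (SE 0.107 and 0.176), neither called.

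For Tcf7l2 and Sox6 the other carriers are neurons and astrocytes. The counts of this paragraph stand beside 10.4% of all genes that rose and 8.48% that fell. Of 9 thalamic and habenular genes, 3 rose (Lhx9, Prkcd and Tnnt1, by 1.65, 0.99 and 1.08) and 2 fell, among them Ramp3 with -1.66, and the sums ran from 4995 to 6212 in shControl and 4700.0 to 6473 in shOpn3. Of 9 genes of interneurons from the medial ganglionic eminence, 3 rose and 0 fell, with sums of 19649.9 to 30746 and 21923 to 46427. Npy of the same list was listed at 0 reads in all libraries, as Neu4 was, and an effect of the annotation was not tested. Among those that rose were Nkx2-1, which hypothalamic neurons also make, and Satb1. Of 12 astrocyte genes 4 rose (Gfap, Vim, Aqp4 and Gja1, by 1.10, 0.56, 0.45 and 0.42) and 1 fell (Glul, -0.38). The remaining 7, among them Aldh1l1 (0.07), Slc1a3 (-0.14) and Sox9 (0.22), did not pass. The sums of the 12 were 347199 to 456308 in shControl and 392712 to 537764 in shOpn3. Of 12 general neuronal genes 1 rose and 2 fell (sums 161248 to 226305 and 154965 to 266913). With TMM scaling 2 rose and 2 fell, where 1636 and 1270 of 15597 genes did. With quantile normalization 4 rose and 1 fell, where 1570 and 1403 genes did. With DESeq2 3 rose and 2 fell, where 1966 and 1739 of 15591 genes did. No direction is therefore given for the neuronal genes. Of 14 microglial genes 13 rose (sums 25844 to 34049 and 41807 to 77785). The part of these cells in the changes of Sox6 and Tcf7l2 was not tested.

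The authors' deposited table, whose headers do not say if pairs were modelled, listed 4 of the 8 genes at an adjusted p under 0.05, 2 higher and 2 lower. Of the 17437 genes with an adjusted p in the authors' deposited table, 21.3% were listed so, 11.4% higher and 9.89% lower. In the authors' deposited table Sox6, Tcf7l2, Bcas1 and Enpp6 had log2 differences of 0.50, 0.57, -1.01 and -0.73 with standard errors of 0.104, 0.176, 0.194 and 0.263, and adjusted p-values of 2.42e-05, 0.00855, 4.24e-06 and 0.0294. Enpp6 is the member that this table calls and limma without the block does not.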

How the data were processed

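For each of 10 samples the deposited table holds 1 signal value per gene. Its values are normalized counts, which the authors made by dividing reads by a size factor (0.942 to 1.07 over the libraries). FastQC, STAR, featureCounts and DESeq2 are named in the submitters' processing notes. The genome build, annotation release and strand setting are not given in the sources used here, so overlapping genes are uncertain. Every positive value was a whole multiple of its library's smallest value (within 0.01), so whole reads were recovered for 100% of values. Per the file headers, the deposited columns also hold a log2 fold change, its standard error, a Wald score and the p-value, raw and adjusted.

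Values were analysed as log2(normalized count + 1) for the 15597 genes with a mean of at least 10, using limma 3.58.1 in R 4.3.3 (trend, group as the only term, two-sided). The Benjamini-Hochberg adjustment covered every gene tested, with 0.05 as the threshold. This scale understates the change of low genes. Relative to the mature list means after subtracting the mean log2 value of its 22 tested genes in each sample. Alternatives were a replicate block, edgeR 4.0.16 and DESeq2 1.42.0 on recovered reads, limma-voom with sample quality weights, pseudocounts of 0.5 and 5, other filters and scalings, and each library left out. The limma and edgeR steps were tested on simulated data.

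Rats had received both viruses, per the labels' protocols, which do not say that equal numbers mark the same rat. Deviations of same-numbered samples correlated in 5 of 5 pairs (r from 0.12 to 0.44), so the numbers were taken to pair the samples. Deviations from a group mean cancel out within the group, so positive values for equal numbers push those for different numbers to negative ones. For different numbers the median was -0.21, with a range of -0.45 to 0.36. The ranges thus overlap: replicate 4 (0.12) lay below shControl 3 with shOpn3 2 (0.36), so its pairing is the least certain. P-values measure the spread between these samples. Those of the main limma fit and the permutation test leave the pairing out, while those of the replicate block and the sign-flip test use it.

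The members and lists were chosen with earlier results of these data known. Named genes were the members, Opn3, Avp, Oxt, Pdgfa and Pdgfc, up to 4 genes of each list with a mean of at least 50 and the smallest adjusted p, and the 5 genes most like Pdgfra and Enpp6 (locus and clone names left out).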

Additional observations from a re-analysis of the deposited data

Results flagged for a closer look

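Dixon's gap test was applied to 138 sets of 5 values, and 5 sets had a sample apart from the rest, where about 6.9 would arise by chance at 1 in 20. No member was among them. St18 had its highest shControl value in replicate 5 (2029 normalized counts), well above the next (1458). Anln, a gene of mature oligodendrocytes, was likewise highest in shControl replicate 5, at 4516 against 3120 for the next. Notch3, a pericyte gene, was highest in shControl replicate 1, at 858 against 563. Oxt was highest in that same library, at 56716 against 21354. Sema5a was lowest in shOpn3 replicate 5, at 4098 against 4700.0.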

How the results depend on the processing

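Sox6 and Bcas1 kept their direction and call in all 22 alternatives, with log2 fold changes from 0.45 to 0.62 and from -1.13 to -0.82. Tcf7l2 kept its direction in all 22 and its call in 13. Enpp6 kept its direction in all 22 and was called in 6, the replicate block (adjusted p = 0.0277), edgeR with that block, DESeq2 and limma-voom with sample quality weights among them. For the genes not called, the sign turned in some alternatives, always without a call: Pdgfra was at 0.056 with quantile normalization and 0.12 without both samples of replicates 1 and 5, an alternative chosen after seeing the data. Cspg4 was at 0.15 and Gpr17 at 0.33 without those samples, and 0.073 and 0.17 with limma-voom weights. C1ql1 was at -0.084 with quantile normalization, -0.04 with edgeR (-0.0431), -0.0042 with edgeR and the replicate block, and -0.04 with DESeq2 (-0.0357). Leaving out 1 library each gave -0.083 to 0.046 for Pdgfra, -0.12 to 0.16 for C1ql1, and -0.20 to 0.061 for Gpr17. The cause of these turns was not tested. The count of members called was 2 to 4 in all alternatives. The count of all genes called moved from 2940 to 4726 with the replicate block, to 4777 with edgeR and the block, and to 5085 with limma-voom and sample quality weights, and to 1987 to 3056 when 1 library was left out. Relative to the mature list, 6 or 7 members were called in each alternative, the seventh being Enpp6. The effect of depth on the 8 members with reads was not tested.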
